A study of Homo sapiens with 12 samples.

Results

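Domains of at least 10 kb of H3K27ac peaks that were present in each of 6 clones of the lymphoma line SUDHL4 are described here. In every clone, peaks on chromosomes 1 to 22 were stitched over gaps of up to 12 kb and 500 bases, and a stitched stretch with at least 10 kb of peaks was called wide. Overlapping wide stretches of the 6 clones were joined into 645 domains. The members are the 235 joined domains that hold a wide stretch of every clone, and the other 410 hold one of 1 to 5 clones. The members were thus chosen by covered length, the number of bases under peaks, in all 6 clones alike. Covered length of a whole domain is therefore given as a description with no test, and falls in it are bounded because each clone had to keep 10 kb.

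SUDHL4 comes from a diffuse large B-cell lymphoma and resembles the B cells of the germinal centre. Each line is 1 clone made with CRISPR/Cas9. The 2 CREBBP-KO clones carry guides against exon 15 and exon 20 of CREBBP, the 2 EP300-KO clones carry guides against exon 17 and exon 24 of EP300, and the 2 WT clones were edited at PPP1R12C and keep both acetyltransferase genes. One CREBBP-KO clone (replicate 1) has an exon number in its name that differs from the exon in its protocol, which is followed here. The series has 12 samples, namely 6 H3K27ac libraries with 1 peak list each and 6 inputs. The lists held 36096 and 41099 peaks in CREBBP-KO clones, 35054 and 35841 in EP300-KO clones, and 46940 and 40658 in WT clones. Read depth is unknown, and whether depth or ChIP yield moves with genotype was not tested.

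Acetylation of lysine 27 on histone H3 marks active promoters and enhancers, and the related enzymes CREBBP (CBP) and EP300 (p300) place it. Long clusters of acetylated enhancers, often called super-enhancers, lie at genes that define a cell type. In germinal-centre B cells these include lineage transcription factors, parts of the antigen receptor pathway and genes that keep B cells inside the follicle.

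Starts could be placed only for genes with a strand in the RefSeq promoter table, which leaves out CD37, DTX1 and MCL1 among others. The 19 placed starts of listed genes that lay inside a member had a peak within 1 kb in each of the 6 clones, as did all 16 placed starts of listed genes inside other joined domains. The peaks are on hg19 and no hg19 annotation was used here. Gene positions in kb are general knowledge, checked for chromosome, length and spacing against RefSeq genes on GRCh38.p14. Promoter windows of 5 such genes are shown from RefSeq on GRCh38.p14, from 250 bases before to 50 bases after the start. These genes were chosen by hand, and values of their domains are given below. EBF1 (a factor that sets B-cell identity) is on chromosome 5, S1PR2 (a receptor that holds B cells in the germinal centre) and MEF2B (a factor mutated in lymphoma) on chromosome 19, FOXO1 (the dark zone factor) on chromosome 13 and BTG2 (an inhibitor of proliferation) on chromosome 1. The windows are chr5:159097907-159098206 for EBF1, chr19:10231282-10231581 for S1PR2, chr19:19170214-19170513 for MEF2B and chr13:40666592-40666891 for FOXO1, all on the minus strand, and chr1:203305269-203305568 for BTG2 on the plus strand. Capitals mark matches, on either strand, to the octamer ATGCAAAT, the ETS-IRF composite element (GGAA, any 2 bases, GAAA), the cyclic AMP response element TGACGTCA or the CCAAT box CCAAT.
EBF1: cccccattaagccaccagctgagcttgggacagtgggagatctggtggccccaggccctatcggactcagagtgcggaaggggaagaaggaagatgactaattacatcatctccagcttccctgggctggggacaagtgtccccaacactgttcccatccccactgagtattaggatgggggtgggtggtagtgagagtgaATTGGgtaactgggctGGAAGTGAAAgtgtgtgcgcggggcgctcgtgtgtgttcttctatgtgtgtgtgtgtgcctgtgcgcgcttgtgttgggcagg
S1PR2: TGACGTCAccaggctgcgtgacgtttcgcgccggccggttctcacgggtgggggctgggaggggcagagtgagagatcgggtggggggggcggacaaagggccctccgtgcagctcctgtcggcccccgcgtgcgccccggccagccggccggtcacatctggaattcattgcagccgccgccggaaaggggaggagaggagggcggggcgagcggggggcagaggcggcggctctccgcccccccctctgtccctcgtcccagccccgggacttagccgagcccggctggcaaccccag
MEF2B: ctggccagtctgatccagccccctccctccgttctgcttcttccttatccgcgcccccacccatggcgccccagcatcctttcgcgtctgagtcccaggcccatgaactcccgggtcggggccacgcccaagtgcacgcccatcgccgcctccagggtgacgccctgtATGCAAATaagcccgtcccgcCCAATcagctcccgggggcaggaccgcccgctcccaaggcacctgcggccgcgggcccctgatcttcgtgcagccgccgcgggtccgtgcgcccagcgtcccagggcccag
FOXO1: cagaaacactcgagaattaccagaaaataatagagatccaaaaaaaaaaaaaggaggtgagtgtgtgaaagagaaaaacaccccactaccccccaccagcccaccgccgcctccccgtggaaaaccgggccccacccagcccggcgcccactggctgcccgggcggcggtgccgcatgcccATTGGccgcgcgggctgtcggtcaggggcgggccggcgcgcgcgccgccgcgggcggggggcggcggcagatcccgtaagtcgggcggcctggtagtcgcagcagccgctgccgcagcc
BTG2: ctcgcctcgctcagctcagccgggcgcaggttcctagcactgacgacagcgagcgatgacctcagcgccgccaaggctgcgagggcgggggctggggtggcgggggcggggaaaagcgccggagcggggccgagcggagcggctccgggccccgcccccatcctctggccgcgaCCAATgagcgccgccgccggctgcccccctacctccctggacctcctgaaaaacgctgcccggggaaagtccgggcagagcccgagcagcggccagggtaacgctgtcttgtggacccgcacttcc
No 2 of these matches overlap. Of all 35116 RefSeq promoter windows, 1.77% hold the octamer, 2.82% the ETS-IRF composite element, 1.85% the cyclic AMP response element and 34.61% the CCAAT box. The 28 windows of the 19 listed genes hold 2, 1, 1 and 5 windows with these motifs in the same order. Each of the 5 windows shown holds a match, whereas most of the 28 hold none, so those shown are not typical. A match describes letters and is no evidence of binding.

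The 1 member at a listed microRNA gene, chr17:56395070-56430555 on hg19, holds MIR142, which gives the blood cell microRNA miR-142. Its mature sequences in RefSeq lie at chr17:58331245-58331267 for the 3p arm and chr17:58331283-58331303 for the 5p arm on GRCh38.p14, minus strand. Capitals mark the seed, bases 2 to 8. They are shown because this domain overlapped between genotypes in covered length.
hsa-miR-142-3p: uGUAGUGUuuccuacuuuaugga
hsa-miR-142-5p: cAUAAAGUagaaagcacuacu
The seeds of the arms differ. Covered length in the MIR142 domain was 14.3 and 15.4 kb in CREBBP-KO clones, 15.5 and 15.3 kb in EP300-KO clones, and 16.8 and 15.4 kb in WT clones. EP300-KO and WT clones overlapped.

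Members spanned 14.2 to 143 kb with a median of 41.7 kb, against 30.7 kb for other joined domains. Together they spanned 11020 kb, of which peaks of any clone covered 5955 kb. They took 17.2% and 16.2% of all autosomal covered bases in CREBBP-KO clones, 15.0% and 15.7% in EP300-KO clones, and 15.2% and 16.1% in WT clones. Chromosomes 2 and 7 held 19 members each and chromosome 18 held 1. Of 213 neighbouring pairs on the same chromosome, 18 lay within 100 kb of each other, and the median distance was 5.2 Mb.

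Genes of the B-cell lists lay at some joined domains, members or not. Genes on the T cell, myeloid, and liver, epithelial or mesenchymal lists lay at none. Of 65 autosomal genes in 4 B-cell lists, 26 overlapped a member (40.0%) and 45 overlapped any joined domain. These genes touched 27 members, or 11.5%, against 25 of the other joined domains, or 6.1%. This difference was not tested, and members spanned more (median 41.7 against 30.7 kb), so they can overlap more genes. Of 17 genes in the lists for T cells, myeloid cells, and liver, epithelial or mesenchymal cells, 0 overlapped a member or another joined domain. No listed plasma cell gene overlapped a member, and 1, MZB1, overlapped another joined domain. The housekeeping and edited gene lists also had 0 genes at members. Genes on none of the lists that are known from T cells (the kinase gene LCK) or plasma cells (JCHAIN, the antibody joining chain, and CD38, a surface enzyme) did lie at members.

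**Figure D1:**
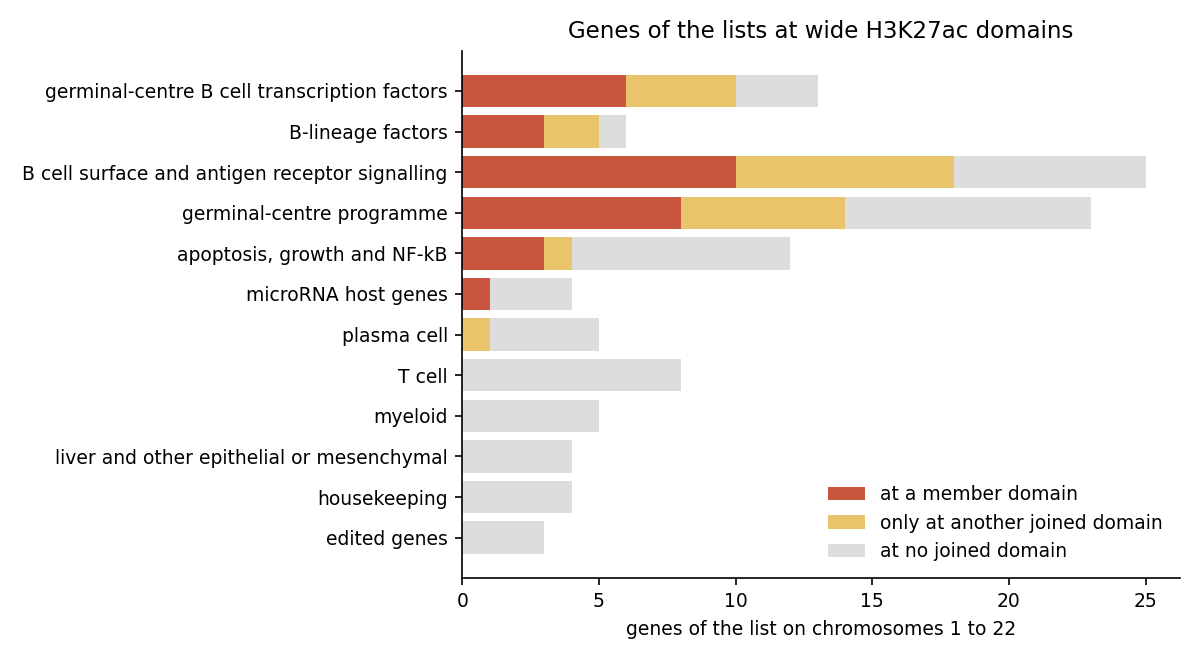
Genes of each list on chromosomes 1 to 22, by whether the gene overlaps a member domain, only another joined domain, or none. The 4 B-cell lists have 3 to 10 genes each at members, and the T cell, myeloid and epithelial lists have 0.

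Among the 13 germinal-centre transcription factors, 6 lay at members, namely IRF8, MEF2B, MEF2C, FOXO1, POU2F2 and FLI1. BCL6, SPIB, BACH2 and ETS1 lay only at joined domains that were not wide in every clone. IRF8, which directs B-cell and myeloid fates, had 13.7 and 13.9 kb covered in CREBBP-KO clones, 10.9 and 10.8 kb in EP300-KO clones, and 15.1 and 13.7 kb in WT clones (chr16:85921847-85946468). MEF2C, a relative of MEF2B, had 18.2 and 22 kb in CREBBP-KO clones, 12.8 and 14.3 kb in EP300-KO clones, and 12.3 and 20.3 kb in WT clones. At IRF8 each EP300-KO value was below each WT value, whereas at MEF2C the WT clones lay far apart with EP300-KO between them. POU2F2, the octamer-binding OCT2 protein, had 13.6 and 16.7 kb in CREBBP-KO clones, 11.8 and 12.7 kb in EP300-KO clones, and 13.5 and 13.4 kb in WT clones. Over the 6 domains the median log2 ratio was -0.36 for EP300-KO to WT and 0.034 for CREBBP-KO to WT.

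The B-lineage factors PAX5, EBF1 and IKZF1 lay at 4 members, with EBF1 at 2 of them. At the start of PAX5, which commits cells to the B lineage, covered length was 18.9 and 23.1 kb in CREBBP-KO clones, 17.2 and 18.1 kb in EP300-KO clones, and 23.5 and 19.6 kb in WT clones. The domain at the start of EBF1 (chr5:158454687-158529638) had 28.7 and 32.5 kb in CREBBP-KO clones, 18.2 and 18.2 kb in EP300-KO clones, and 23.5 and 29.2 kb in WT clones. IKZF1, which encodes the zinc finger protein Ikaros, had 12.3 to 15.2 kb over the 6 clones, with log2 ratios of -0.091 for EP300-KO to WT and 0.093 for CREBBP-KO to WT. EP300-KO lay below WT at PAX5 and EBF1, and the genotypes overlapped at IKZF1.

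Of 25 surface and antigen receptor genes, 10 lay at members. They were CD37, BLK, SYK, PLCG2, PTPRC, CXCR5, S1PR2, GNA13, SWAP70 and RHOH, while CD79A, CD79B, MS4A1, CD22, CD74, CIITA, LYN and BLNK lay only at other joined domains. The kinase gene SYK had 22.3 and 24.7 kb in CREBBP-KO clones, 20.7 and 21.1 kb in EP300-KO clones, and 21.7 and 21.4 kb in WT clones. CXCR5, the receptor that draws B cells into follicles, had 15.1 and 19.8 kb in CREBBP-KO clones, 10.8 and 12.6 kb in EP300-KO clones, and 18.5 and 19.1 kb in WT clones. The EP300-KO to WT log2 ratio was thus -0.046 at SYK and -0.69 at CXCR5, the ends of the range within this list. S1PR2 and GNA13, a receptor and a G protein of the same confinement pathway, had ratios of -0.28 and -0.52. PTPRC, which encodes the phosphatase CD45, had more covered length in both CREBBP-KO clones than in the others, with 39.9 and 48.8 kb in CREBBP-KO clones, 26.6 and 27.4 kb in EP300-KO clones, and 27.3 and 34.8 kb in WT clones.

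Of 23 germinal-centre programme genes, 8 lay at members, and at all 8 both EP300-KO clones had less covered length than both WT clones, as in 89% of all joined domains. BTG2 had 38.8 and 41.4 kb in CREBBP-KO clones, 36.0 and 37.5 kb in EP300-KO clones, and 42.6 and 39.4 kb in WT clones. MME, which encodes the germinal-centre surface protein CD10, had 15.6 and 17.8 kb in CREBBP-KO clones, 11 and 11.1 kb in EP300-KO clones, and 15.2 and 15.6 kb in WT clones. The EP300-KO to WT log2 ratio was -0.16 at BTG2 and -0.48 at MME, again the ends of the range. Among apoptosis and NF-kB genes the members held BCL2 and MCL1, which block cell death, and TRAF1, a signalling adaptor. BCL2 had 19.2 and 22.3 kb in CREBBP-KO clones, 14.1 and 11.4 kb in EP300-KO clones, and 23.5 and 16.9 kb in WT clones. The 31 members at any listed gene had median log2 ratios of -0.33 for EP300-KO to WT and 0.022 for CREBBP-KO to WT.

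The largest member by covered length was chr3:187614059-187724965, which lies between BCL6, the master repressor of the germinal centre, and LPP. It had 89.9 and 94.1 kb covered in CREBBP-KO clones, 67.3 and 69.6 kb in EP300-KO clones, and 87.6 and 85.8 kb in WT clones. The other 9 of the 10 largest lay at ITPKB, TOX, IGLL5, RFTN1, NCOA3, IGKC, SEPTIN9, BTG2 and PLCG2. NCOA3, a coactivator gene, had 44.2 and 55.7 kb in CREBBP-KO clones, 30 and 31.5 kb in EP300-KO clones, and 55.0 and 52.9 kb in WT clones. IGKC, the kappa light chain constant gene, had 44.2 and 47.1 kb in CREBBP-KO clones, 41.1 and 41.0 kb in EP300-KO clones, and 40.6 and 41.4 kb in WT clones. Covered length was lower in both EP300-KO clones than in either WT clone in 9 of the 10 largest members, with IGKC as the exception, which is close to the 89% of all joined domains.

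**Figure D2:**
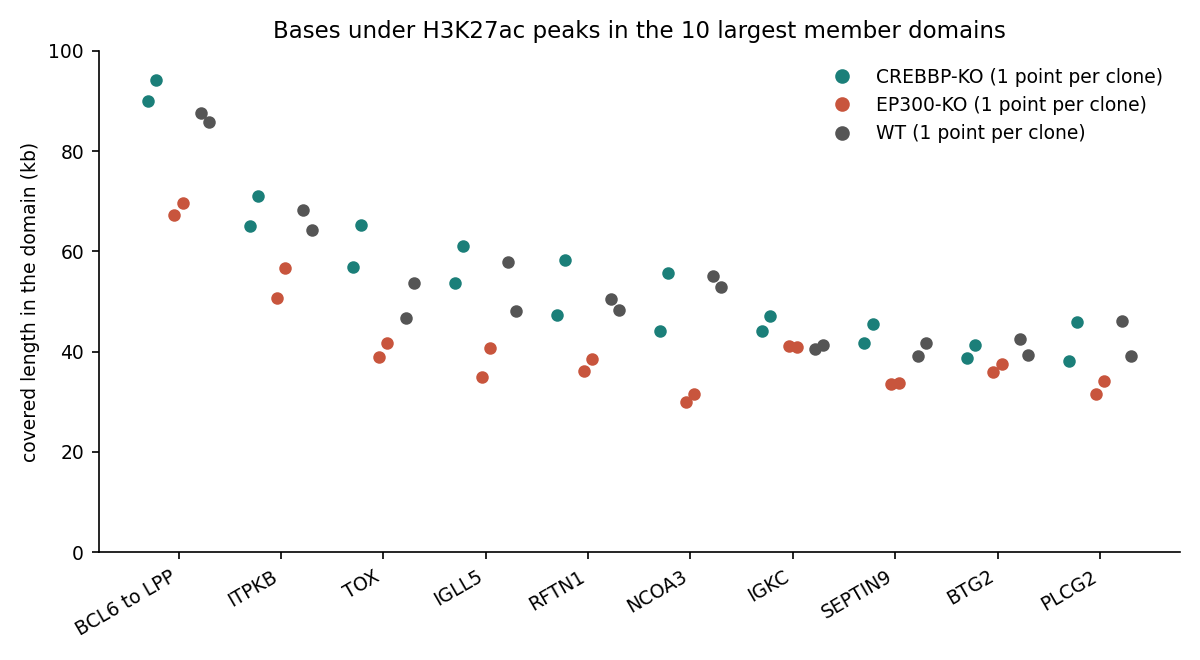
Covered length in kb of the 10 largest member domains, 1 point per clone, ordered by mean covered length. EP300-KO points sit below WT points except at IGKC, where EP300-KO clones have 41.1 and 41.0 kb and WT clones 40.6 and 41.4 kb.

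Peak by peak, EP300-KO clones had shorter blocks and wider gaps in some members and not in others. In the domain between BCL6 and LPP the longest unbroken peak was 46016 and 56525 bases in CREBBP-KO clones, 23330 and 23406 bases in EP300-KO clones, and 24921 and 46692 bases in WT clones. Narrow gaps can set these lengths. In the first EP300-KO clone the longest peak began 9.114 kb from the domain's centre, where the peak before it ended at 8.898 kb. In the first WT clone the longest peak ended at 12.81 kb and the next began at 12.916 kb. At FOXO1 (chr13:41138755-41242234) covered length was 39.9 and 45.4 kb in CREBBP-KO clones, 22.3 and 24.6 kb in EP300-KO clones, and 44.1 and 41.1 kb in WT clones. The longest break there was 30715 and 16191 bases in CREBBP-KO clones, 38168 and 37946 bases in EP300-KO clones, and 10494 and 14744 bases in WT clones. BTG2 stayed in 1 stitched stretch in every clone, and FOXO1 was in 2 or 3 in each clone except the first WT clone.

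**Figure D3:**
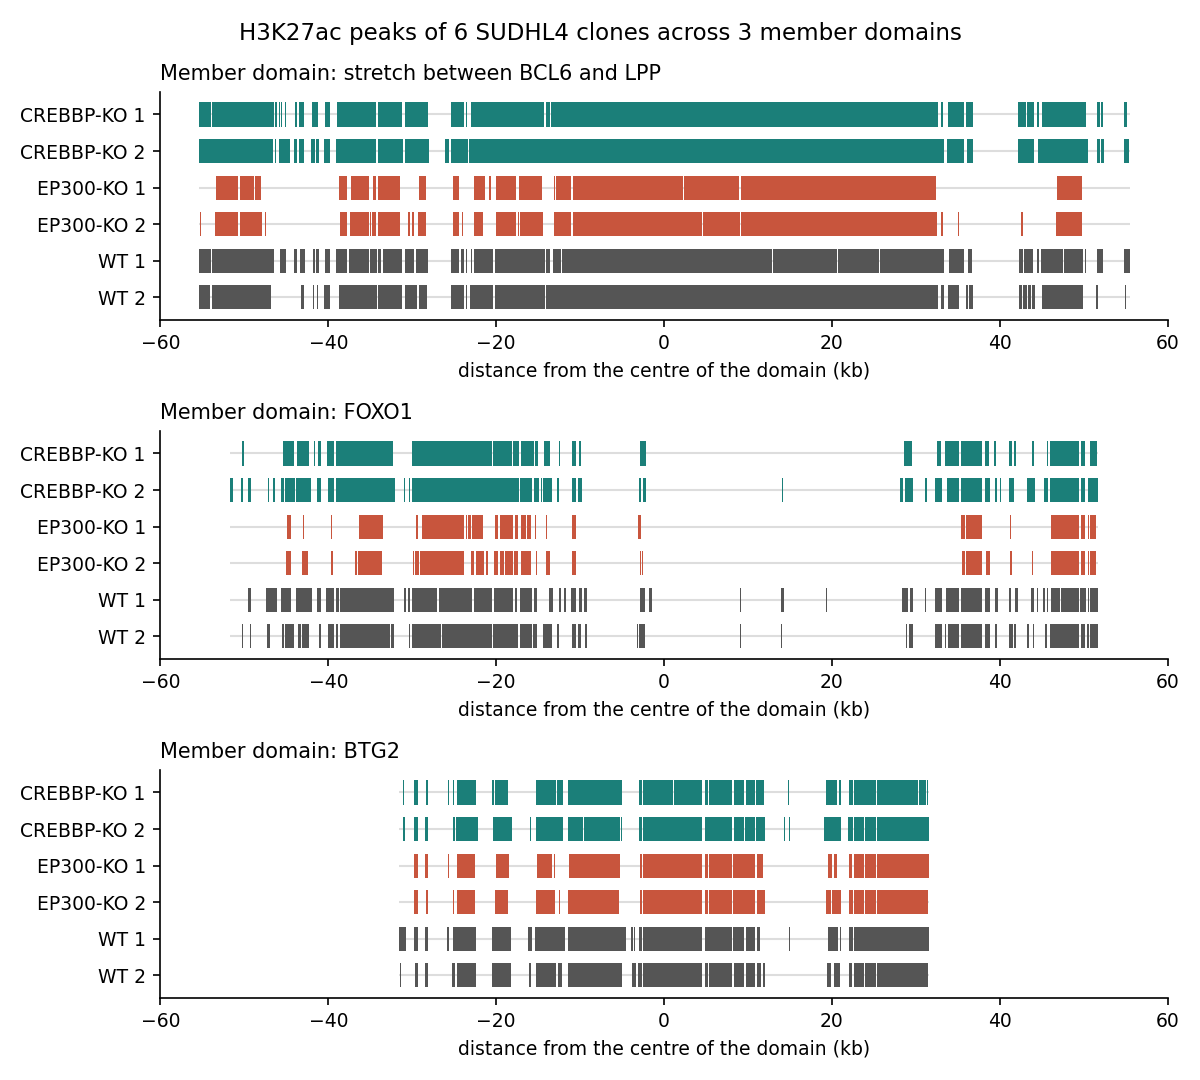
Peaks of each clone as filled blocks across 3 member domains, placed by distance in kb from the domain's centre, with the grey line marking the span of the domain. The longest break at FOXO1 is widest in EP300-KO clones, at 38168 and 37946 bases, while at BTG2 the longest break runs from 4046 to 7728 bases over the 6 clones.

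For EP300-KO against WT, the median log2 ratio of covered length over the 235 members was -0.31, or 80.9% of WT, and single members ran from -0.98 to 0.27. The ratio was below 1 in 229 members. Each EP300-KO value was below each WT value in 207 members (88.1%), where 89% of all 645 joined domains did so, and above both in 2 members (0.851%, where 0.93% of joined domains did so). These shares are close to the background and say nothing particular about the members. Whole peak lists of EP300-KO clones covered 80.3% of the WT bases, and in members the total was 78.9%. The other joined domains had a median of 72.2% of WT, but the rule required 10 kb in every clone of a member and so bounded its fall.

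The 5 members with the lowest ratio lay at PIK3C2B, PLEKHG1, CYTH1, FOXO1 and at chr7:22379649-22442950. PIK3C2B, a lipid kinase gene, had 16.6 and 20.8 kb in CREBBP-KO clones, 10.7 and 12.6 kb in EP300-KO clones, and 24.4 and 21.4 kb in WT clones. PLEKHG1 had 24.5 and 28.4 kb in CREBBP-KO clones, 12.2 and 13.8 kb in EP300-KO clones, and 24.1 and 25.7 kb in WT clones. In both, each EP300-KO clone was far below each WT clone. At the other end, CHST15, a sulfotransferase gene, had 15.1 and 15.3 kb in CREBBP-KO clones, 19.5 and 17.6 kb in EP300-KO clones, and 16.9 and 13.9 kb in WT clones. DHRS12 had 22 and 21.5 kb in CREBBP-KO clones, 22 and 21.5 kb in EP300-KO clones, and 18.9 and 18.8 kb in WT clones. These were the 2 members in which both EP300-KO clones exceeded both WT clones.

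For CREBBP-KO against WT the median log2 ratio was 0.029, or 102% of WT, with a range of -0.49 to 0.84. Each CREBBP-KO value was below each WT value in 11 members (4.68%, where 9.92% of joined domains did so) and above both in 37 (15.7%, where 17.8% did so). In the remaining 187 members the genotypes overlapped. The sign of this median rests on 1 library, since without CREBBP-KO replicate 2 it was -0.077 and without CREBBP-KO replicate 1 it was 0.13. CREBBP-KO replicate 2 had more covered length than replicate 1 in 231 of 235 members, with a median log2 ratio of 0.22, larger than the genotype median. The corresponding ratio was 0.065 between EP300-KO clones and -0.033 between WT clones.

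Single members departed from this. WNK2, a kinase gene, had 19.3 and 20.3 kb in CREBBP-KO clones, 11.5 and 12.1 kb in EP300-KO clones, and 10.4 and 11.8 kb in WT clones. PTPRJ, which encodes a receptor phosphatase, lay at 2 members, of which chr11:48094613-48132666 had 16.4 and 19.2 kb in CREBBP-KO clones, 11.2 and 10.1 kb in EP300-KO clones, and 11 and 11 kb in WT clones. CREBBP-KO exceeded the other genotypes in both, as at PTPRC. The other PTPRJ member, chr11:48002572-48074198, had 26.2 and 30.3 kb in CREBBP-KO clones, 19.1 and 20.3 kb in EP300-KO clones, and 27.5 and 24.6 kb in WT clones. The lowest ratio was at RNF216, a ubiquitin ligase gene, with 12 and 13.9 kb in CREBBP-KO clones, 12.3 and 11.2 kb in EP300-KO clones, and 20.5 and 15.9 kb in WT clones. The lowest 3 also included MAP4K4 and a stretch of the histone gene cluster, chr6:26188358-26241318.

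**Figure D4:**
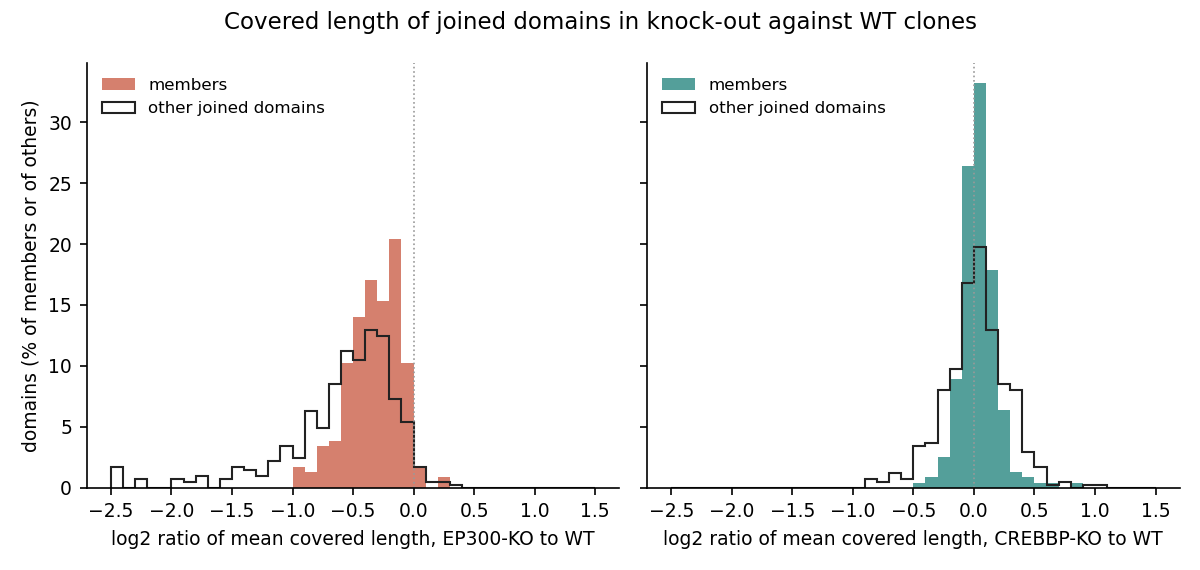
Distribution of the log2 ratio of mean covered length to WT, for EP300-KO (left) and CREBBP-KO (right), as a percent of the 235 members (filled) and of the 410 other joined domains (line), in bins of 0.1. The EP300-KO members centre on -0.31 and the CREBBP-KO members on 0.029. The leftmost bin also holds 6 other domains below -2.5.

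EP300-KO was also set against CREBBP-KO, with both knock-outs made by guides in the same line. The median log2 ratio over members was -0.34, or 79.1%, and each EP300-KO value was below each CREBBP-KO value in 200 members (85.1%, where 82.9% of joined domains did so) and above in 2 (0.851%, where 1.09% did so). This comparison shares its EP300-KO clones with the comparison against WT.

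A break is an uncovered stretch between the first and last peak of a clone in a domain. The rule stitched peaks over such stretches, so breaks are given as a description with no test. Breaks over all members numbered 3551 and 3763 in CREBBP-KO clones, 3145 and 3390 in EP300-KO clones, and 4416 and 3828 in WT clones. Per 10 kb of peaks there were 7.54 and 6.83 in CREBBP-KO clones, 8.25 and 8.46 in EP300-KO clones, and 8.83 and 7.80 in WT clones. EP300-KO thus had fewer breaks in total than WT, and EP300-KO and WT overlapped per length of peak. Breaks per 10 kb depended on list length. With the same number of best-scoring peaks taken from each list they averaged 6.56 in CREBBP-KO, 8.21 in EP300-KO and 6.73 in WT clones.

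The breaks of EP300-KO clones were longer. Their mean length was 1600 and 1400 bases in CREBBP-KO clones, 1995 and 1837 bases in EP300-KO clones, and 1301 and 1469 bases in WT clones. The mean of the clone values was 1916 ± 112 bases in EP300-KO and 1385 ± 119 bases in WT (SD, n = 2 each). Bases in breaks came to 5.68 and 5.27 Mb in CREBBP-KO clones, 6.28 and 6.23 Mb in EP300-KO clones, and 5.75 and 5.62 Mb in WT clones. Members split into more than 1 stitched stretch numbered 36 and 17 in CREBBP-KO clones, 56 and 47 in EP300-KO clones, and 11 and 28 in WT clones. EP300-KO was above WT in each of these measures without overlap, whereas CREBBP-KO and WT overlapped in all 3. The span of a domain is the same for every clone, so lower covered length leaves more bases in breaks or at edges. These measures are thus not separate from covered length, and they were not recomputed with equal list lengths.

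**Figure D5:**
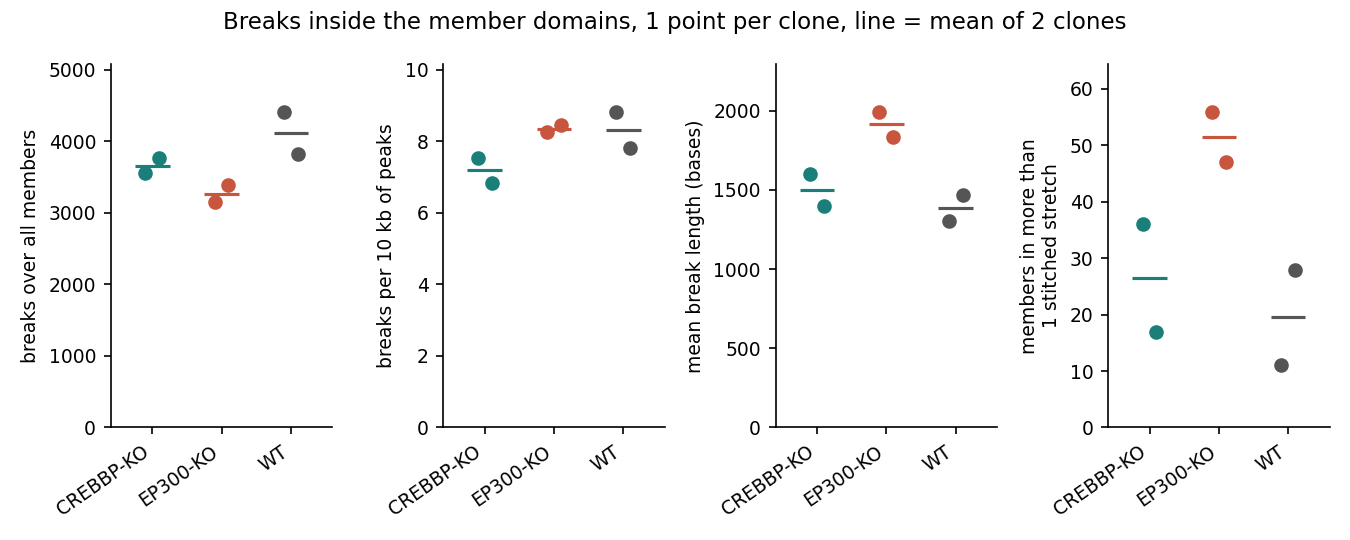
Breaks inside the 235 members per clone, with 1 point per clone and a line at the mean of the 2 clones: number, number per 10 kb of peaks, mean length in bases, and members split into more than 1 stitched stretch. EP300-KO clones have the longest breaks (1995 and 1837 bases) and the most split members (56 and 47).

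Base by base, peaks of all 6 clones coincided on 3341 kb, or 56.1% of the 5955 kb covered in any clone. This shared share ran from 26.5% to 91.2% over members with a median of 58.1%. It was lowest at CHD7, a chromatin remodeller gene, and highest at ADORA2A, an adenosine receptor gene. Bases covered in both CREBBP-KO and both WT clones and in neither EP300-KO clone made up 384.7 kb (6.46%). The mirror class, covered in both EP300-KO and both WT clones and in neither CREBBP-KO clone, made up 5.486 kb (0.0921%).

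The 2 WT clones shared 4440 kb inside members. EP300-KO clones both lacked 621 kb of it (14%) and CREBBP-KO clones both lacked 65.9 kb (1.48%). Bases covered in both knock-out clones and neither WT clone came to 18.6 kb for EP300-KO and 109 kb for CREBBP-KO. Of the bases that EP300-KO lacked, 90.5% lay between the outermost EP300-KO peaks of the domain rather than at its edges. For CREBBP-KO this share was 91.6%, so it was not particular to EP300-KO. Shortened stretches that knock-out peaks still touched held 65.4% of the bases EP300-KO lacked and 74.9% of those CREBBP-KO lacked. For EP300-KO the rest lay in 960 of 4454 shared WT stretches (21.6%) without an EP300-KO peak, against 115 stretches (2.58%) for CREBBP-KO. These counts and the base classes above were made inside members only. Whole peak lists covered 80.3% of the WT bases in EP300-KO and 97.2% in CREBBP-KO. Nothing particular to members is therefore read from the difference between the knock-outs.

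Single regions inside the members were tested with limma over 19860 merged regions of the whole genome, with Benjamini-Hochberg adjustment over all of them. Of 1959 tested regions in members, 201 fell in EP300-KO against WT (10.3%, where 6.13% of all tested regions did) and 12 rose (0.613%, where 1.21% did). The difference between these shares was not tested. The fits use covered bases, the quantity by which the members were chosen in all clones alike. The calls are thus not separate evidence about the members as a set. Of the 201 regions, 76 had no EP300-KO peak. The 201 regions lay in 103 members, with 8 in the domain between BCL6 and LPP, 7 each at NCOA3 and at chr20:52507064-52559044, and 6 at FOXO1. The domains between BCL6 and LPP, at NCOA3 and at FOXO1 spanned 111, 130 and 103 kb, against a median of 41.7 kb over members. Longer domains can hold more tested regions, and calls per tested region were not computed for each domain. Another 122 members held no called region, and other joined domains were not counted in this way. The count depended on single libraries, from 82 lower regions without WT replicate 1 and 90 without WT replicate 2 to 261 without EP300-KO replicate 2. It was 129 without CREBBP-KO replicate 1, 121 without CREBBP-KO replicate 2 and 124 without EP300-KO replicate 1.

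At FOXO1 the region chr13:41223963-41225654 had 1684 and 1416 bases in CREBBP-KO clones, no peak in either EP300-KO clone, and 1529 and 1499 bases in WT clones (limma adjusted p = 0.00363). The region chr13:41151380-41158458 in the same domain kept a peak, with 6838 and 7079 bases in CREBBP-KO clones, 2852 and 3092 bases in EP300-KO clones, and 6813 and 6523 bases in WT clones. Its log2 difference for EP300-KO against WT was -0.94 ± 0.09 (SE). At PTPRC, chr1:198637037-198639521 had 2438 and 2464 bases in CREBBP-KO clones, 657 and 453 bases in EP300-KO clones, and 1600 and 1831 bases in WT clones (log2 difference to WT -1.28 ± 0.19, limma adjusted p = 0.0243). The lowest adjusted p was at chr11:72857492-72861002, which had 2495 and 3332 bases in CREBBP-KO clones, no peak in EP300-KO clones, and 3321 and 2754 bases in WT clones (limma adjusted p = 0.000796).

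The 12 higher calls depended on the processing and on single libraries. There were 3 without centring, 10 without WT replicate 1 and 21 without WT replicate 2. There were 1 to 4 when any of the knock-out clones was left out. At IGKC, chr2:89194867-89196552 had 1476 and 1672 bases in CREBBP-KO clones, 1464 and 1338 bases in EP300-KO clones, and 304 and 589 bases in WT clones (limma adjusted p = 0.0287 for EP300-KO against WT). At CHST15, chr10:125850791-125852730 had 1195 and 1095 bases in CREBBP-KO clones, 1932 and 1502 bases in EP300-KO clones, and 602 and 612 bases in WT clones (limma adjusted p = 0.0136). At DHRS12, chr13:52387238-52388217 had 970 and 847 bases in CREBBP-KO clones, 823 and 894 bases in EP300-KO clones, and no peak and 99 bases in WT clones (limma adjusted p = 0.0181). In all 3 regions the CREBBP-KO clones also lay above both WT clones.

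For CREBBP-KO against WT, limma called 0 of the 1959 regions, where 0.0101% of all tested regions were called lower and 0% higher. At an unadjusted p under 0.05 there were 34 lower and 94 higher regions, and the lowest adjusted p was 0.138. Without WT replicate 2, 14 regions rose. For EP300-KO against CREBBP-KO, 252 regions fell (12.9%, where 7.21% of all tested regions did) and 6 rose (0.306%, where 1.9% did). Of the 252 regions, 81 had no EP300-KO peak, and the limits given for EP300-KO against WT apply here too. The lower count was 47 without CREBBP-KO replicate 1, 48 without CREBBP-KO replicate 2 and 144 without EP300-KO replicate 1.

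The longest unbroken peak of a domain, a length the rule did not set directly, had medians over members of 5101 and 6214 bases in CREBBP-KO clones, 4214 and 4189 bases in EP300-KO clones, and 4865 and 5074 bases in WT clones. After centring, limma over all 645 joined domains called 0 members in each of the 3 comparisons, where 0% of all joined domains were called in either direction. At an unadjusted p under 0.05 there were 13 lower and 11 higher members for EP300-KO against WT, 3 lower and 14 higher for CREBBP-KO against WT, and 21 lower and 19 higher for EP300-KO against CREBBP-KO. The nearest to a call was the domain at TRAF1 and PHF19, with 4090 and 4191 bases in CREBBP-KO clones, 1760 and 2026 bases in EP300-KO clones, and 4047 and 4097 bases in WT clones (limma adjusted p = 0.0948 for EP300-KO against WT). MEF2B had 9604 and 8764 bases in CREBBP-KO clones, 2851 and 2847 bases in EP300-KO clones, and 5852 and 4666 bases in WT clones. CREBBP-KO was highest and EP300-KO lowest there, without overlap. Without WT replicate 2, members were called in both directions for each knock-out against WT, more of them higher than lower. Without WT replicate 1, only lower members were called for EP300-KO against WT, and none for CREBBP-KO against WT. These fits rest on 1 WT clone.

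The set was limited mainly by EP300-KO clones. Of 347 domains wide in the other 4 clones, both EP300-KO clones kept 235 (67.7%) and neither kept 82. Of 242 domains wide in the 4 clones other than CREBBP-KO, both CREBBP-KO clones kept 235 (97.1%), and of 240 wide in the knock-out clones both WT clones kept 235 (97.9%). Whole lists covered 28.2 and 35.1 Mb in CREBBP-KO clones, 26.1 and 26.2 Mb in EP300-KO clones, and 33.9 and 31.3 Mb in WT clones. The shares kept follow from the rule's own values and were not recomputed with equal list lengths. Just inside the threshold, the least wide stretch of the TPD52 domain had 10.0 kb, in the first EP300-KO clone. Just outside it, chr22:22510823-22574699 in the lambda light chain locus had 9.52 kb there and was wide in 4 clones.

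Peaks inside members were wider than elsewhere, which follows from a rule on covered length and is no separate finding. They had no higher rank by the deposited score, which is the authors' own value of unstated meaning. The median width was 562 and 597 bases in CREBBP-KO clones, 561.5 and 542 bases in EP300-KO clones, and 503 and 556 bases in WT clones. Outside members it was 457 and 482 bases in CREBBP-KO clones, 454 and 445.5 bases in EP300-KO clones, and 420 and 450 bases in WT clones. The median rank by score within a list, as a percentile, was 47.1 to 50.4 in members and 49.8 to 50.4 elsewhere.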

How the data were processed

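H3K27ac was measured by ChIP-seq in 6 SUDHL4 clones, 2 per genotype, each with an input. Per the submitters' processing notes, CASAVA 1.8, Bowtie2 2.1.0, SAMtools 0.1.19 and hg19 were used. Per the file headers, every clone has a list of its own made with its input, and replicates were not pooled. No source used here names the peak caller. The deposited start and end of a peak are genome positions. They were taken to be 0-based although no header says so, and a printed start may be off by 1 base. The deposited score per peak is the authors' value and served only to rank peaks within a list. Depth is unknown.

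Domains and members were built as the report states (Python 3.11.15, pandas 2.3.3, numpy 2.4.6). Merged regions are peaks of the 6 lists that share a base. Regions were tested if 2 or more clones had 500 or more bases of them under peaks, on log2(covered bases + 100), centred on each clone's median over features covered in all 6 clones, with limma 3.58.1 (R 4.3.3), a spread that trends with covered length and is shared by all 6 clones, and an adjusted p threshold of 0.05. The added 100 bases make fold changes of short regions too small. Centring removed a log2 shift of -0.20 for EP300-KO against WT and of -0.16 for EP300-KO against CREBBP-KO from regions, and of -0.25, 0.16 and -0.41 from longest peaks for EP300-KO against WT, CREBBP-KO against WT and EP300-KO against CREBBP-KO, and calls are relative to it. The clones are separate lines, and p-values measure the spread between them. Replicate numbers only name clones.

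The members, gene lists and tests were chosen with earlier results of these data known. Domains named are the 10 with the largest mean covered length, the 5 lowest and 5 highest by EP300-KO to WT ratio, the 3 lowest and 3 highest by CREBBP-KO to WT ratio, those nearest the threshold and those at listed genes. CHD7, ADORA2A, LCK, JCHAIN, CD38, the member on chromosome 20 without a gene name, the microRNA domain's comparison and single regions were named after their values were seen. Of 112 listed genes, all 112 had the same chromosome in the RefSeq table and 109 had a length or spacing within 5 kb of it. Gene names at other domains were looked up after the positions were seen. Alternatives are given in the closing section.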

Additional observations from a re-analysis of the deposited data

How the results depend on the processing

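Setting the stitching gap to 5 kb gave 133 members, a minimum of 8 kb of peaks gave 378 and one of 15 kb gave 80. The median log2 ratio of EP300-KO to WT stayed negative in all 12 alternatives and was -0.24 with the 5 kb gap and -0.25 with equal list lengths. Breaks per 10 kb were 5.71 in CREBBP-KO, 6.94 in EP300-KO and 6.78 in WT clones with the 5 kb gap. They were 3.08, 3.92 and 3.42 in the same order when only stretches of at least 500 bases counted. With a 20 kb gap they were 7.88 in CREBBP-KO and 9.10 in EP300-KO, with a 15 kb minimum 6.51 and 7.51, and with equal list lengths 6.56 in CREBBP-KO and 6.73 in WT.

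Called regions in members numbered 213 in both directions for EP300-KO against WT and 130 with only the 4 compared clones. For EP300-KO against CREBBP-KO they numbered 258, and 169 after quantile normalization. For CREBBP-KO against WT there were 3 with equal list lengths and 2 with a spread that did not trend with covered length, an alternative chosen after seeing the data. Calls on the longest peak numbered 4 without centring and 1 with peaks closer than 500 bases joined for EP300-KO against WT, all lower in EP300-KO. For EP300-KO against CREBBP-KO they numbered 20 without centring, 4 with only the 4 compared clones and 4 with joined peaks, again all lower. The cause of these differences was not tested.

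Leaving out each clone in turn gave 235 to 260 members, medians of -0.34 to -0.27 for EP300-KO to WT and -0.077 to 0.13 for CREBBP-KO to WT. Breaks per 10 kb ran from 6.88 to 7.53 in CREBBP-KO, 8.27 to 8.49 in EP300-KO and 7.76 to 8.83 in WT. Called regions ran from 92 to 265 for EP300-KO against WT, 0 to 14 for CREBBP-KO against WT and 49 to 287 for EP300-KO against CREBBP-KO. Calls on the longest peak ran from 0 to 29, 0 to 24 and 0 to 6 for the same comparisons. Where 1 clone of a genotype remained, it was assumed to vary like the others. No paired analysis was possible because replicate numbers only name separate clones, made with different guides within each knock-out genotype.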

Other observations

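Chromosome X lies outside the rule. The same steps gave 17 joined domains there, of which 2 held a wide stretch of all 6 clones. At chrX:19845560-19915776 covered length was 16.8 and 22.2 kb in CREBBP-KO clones, 14.1 and 14.4 kb in EP300-KO clones, and 19.5 and 18.6 kb in WT clones. At chrX:37604975-37656709 it was 14.9 and 17.0 kb in CREBBP-KO clones, 11.6 kb in the lower of the EP300-KO clones, and 15.5 and 15.6 kb in WT clones. In both, EP300-KO clones lay below WT clones.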
